A study of Mus musculus with 9 samples.

Results

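Endothelial cells line blood and lymph vessels, and the genes examined here are 36 that mark them: junction and adhesion proteins, receptors for vascular growth factors, transcription factors, secreted proteins and proteins that set vessel tone and permeability. The genes were taken as a named list, found by the gene names in the scanner files or older synonyms, and each was represented by its brightest tested probe. All 36 had at least 1 probe, 59 probes in all, and 34 of them were among the 19847 genes tested. Sele, the endothelial selectin of inflamed vessels, was well above background on 2 arrays, both marker-positive, and Flt4, a receptor of lymphatic vessel growth, on 1 marker-negative array, so neither was tested.

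The study measured RNA of primary prostate cells from BL6 mice, separated by FACS (fluorescence-activated cell sorting), on 9 Agilent arrays. Marker-positive cells (3 arrays), labelled stem cells, were Lin- and CD44+CD133+Sca-1+CD117+, and marker-negative cells (6 arrays), labelled non-stem cells, were Lin- and CD44-CD133-Sca-1-CD117-. No treatment, transgene or age is given, and the labels name neither the proteins of the lineage stain nor the animals behind each array. The p-values therefore reflect only how far these arrays spread, which may be technical. Every array carried sample RNA in Cy5 and a universal mouse reference RNA from Stratagene in Cy3. A level is therefore the log2 ratio of sample over reference, and differences are given as marker-positive minus marker-negative means. In such bulk samples, fewer cells of a type and less RNA per cell cannot be told apart.

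The arrays themselves differed. Marker-positive replicate 3 had 45.5% of its probes well above background in Cy5, where replicates 1 and 2 had 67.3% and 69.3% and the marker-negative arrays 47.5% to 69.5%. Across tested probes, replicate 3 correlated at 0.609 and 0.582 with its group's other arrays, which correlated at 0.923 with each other. With marker-negative replicates 4 and 6 it correlated more closely, at 0.677 and 0.676, and with the other marker-negative arrays at 0.483 to 0.589. Since marker-positive replicate 3 stood apart from its group, counts and called genes are also given without it.

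As background, endothelial cells hold together through VE-cadherin and tight junction proteins, and take growth and survival cues from vascular endothelial growth factor (VEGF) through Kdr and from angiopoietins through Tek. Their identity is kept by transcription factors of the ETS and SOX families together with Tal1 and Lmo2, several of which blood cells use as well. In the prostate, capillaries run in the stroma around the glands, and endothelium is known to display Sca-1, one of the proteins used in this sort.

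ETS factors bind the short motif AGGAAG and, in a longer form, the motif CCGGAAG. The SOX motif searched was ACAATG, and the motif of GATA factors, which work with Tal1 and Lmo2, was AGATAA. Both strands of RefSeq promoter windows (build GRCm38.p6) were searched from 250 bases before to 50 bases after the start, and no motif lies within another, although both ETS motifs end in GGAAG. Of the 36 genes, 18 had a window. AGGAAG stood in 10 of them (55.6%) and in 35.1% of 27025 genes with a window. CCGGAAG stood in 0 of 18 against 9.12%, ACAATG in 1 (5.56%) against 12.8%, and AGATAA in 2 (11.1%) against 11.4%. These are counts of letters, not of bound sites. Where the table lists several starts of a gene, the first was used. Shown here are the 250 bases before the start of Calcrl and Tal1, both called higher in marker-positive cells, and of Egfl7, whose stretch holds AGGAAG 3 times, read 5′ to 3′ along the gene with motifs in capitals, as written or as their reverse complement. Calcrl lies at chr2:84425267-84425516 on the minus strand, Tal1 at chr4:115056176-115056425 on the plus strand and Egfl7 at chr2:26580833-26581082 on the plus strand.
Calcrl: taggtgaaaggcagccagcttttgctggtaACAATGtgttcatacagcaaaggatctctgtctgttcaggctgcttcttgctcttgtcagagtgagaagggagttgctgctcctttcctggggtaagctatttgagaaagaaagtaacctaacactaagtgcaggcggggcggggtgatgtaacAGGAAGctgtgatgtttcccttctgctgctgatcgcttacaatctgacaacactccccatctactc
Tal1: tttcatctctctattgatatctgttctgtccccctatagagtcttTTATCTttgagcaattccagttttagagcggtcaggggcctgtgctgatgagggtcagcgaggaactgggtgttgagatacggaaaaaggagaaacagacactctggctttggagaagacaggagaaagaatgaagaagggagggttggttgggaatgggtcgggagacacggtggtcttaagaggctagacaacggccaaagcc
Egfl7: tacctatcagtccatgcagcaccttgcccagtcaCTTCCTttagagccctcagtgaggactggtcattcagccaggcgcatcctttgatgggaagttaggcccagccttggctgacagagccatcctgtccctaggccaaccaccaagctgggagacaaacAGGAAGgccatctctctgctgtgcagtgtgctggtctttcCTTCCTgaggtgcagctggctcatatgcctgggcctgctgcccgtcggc
In Calcrl the capitals mark 1 SOX motif (ACAATG) and 1 ETS motif (AGGAAG). In Tal1 they mark 1 GATA motif, on the opposite strand. In Egfl7 they mark 3 ETS motifs, of which 1 reads forward. Egfl7 was not called higher. Of the other called genes, Ednrb had a window with none of the motifs searched, and Vwf and Thbd had no window.

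Most endothelial genes had more RNA in marker-positive than in marker-negative cells on 2 of the 3 marker-positive arrays, and 5 passed the test over all 3. The median difference over the 34 tested genes was 2.0 on the log2 scale, ranging from -0.47 (Lmo2) to 4.24 (Thbd), while the median over all 19847 genes was -0.01. Positive differences were seen in 32 of 34 genes, against 48.8% of all genes, and differences of at least 1 in 26, against 10.1%. At a limma adjusted p under 0.05, 5 genes were called higher: Thbd, Vwf, Calcrl, Tal1 and Ednrb. The background of such calls over all genes was 1.56%. None was called lower, where the background was 1.67%. An unadjusted p under 0.05 was reached by 19 of 34 genes in the higher direction (9.71% of all genes) and by 0 in the lower (9.83%). No alternative setting tried called any of them lower. Without marker-positive replicate 3 the number called higher was 22 of 34, beside 4.70% of all genes. Thbd, Vwf, Calcrl and Ednrb were among these, and Tal1 was not (adjusted p = 0.0539). The number was 1 without marker-positive replicate 1 or 2, 3 without marker-negative replicate 1 (Ednrb, Tal1 and Vwf), 2 without marker-negative replicate 3 (Thbd and Vwf), and 1 without marker-negative replicate 2, 4, 5 or 6. Wherever 1 gene was left, it was Vwf. The share of all genes called higher was 0.499% and 0.574% without marker-positive replicates 1 and 2. It ranged from 0.786% to 1.5% without 1 of the marker-negative arrays. With processed signals, or without the filter on dim probes, Thbd and Vwf were called (1.1% and 0.788% of all genes). With median centring it was Vwf (0.7%). Cy5 alone ended the call of Ednrb, and leaving out background subtraction or averaging a gene's probes ended that of Calcrl. There 1.39% to 1.54% of all genes were called higher.

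**Figure D1:**
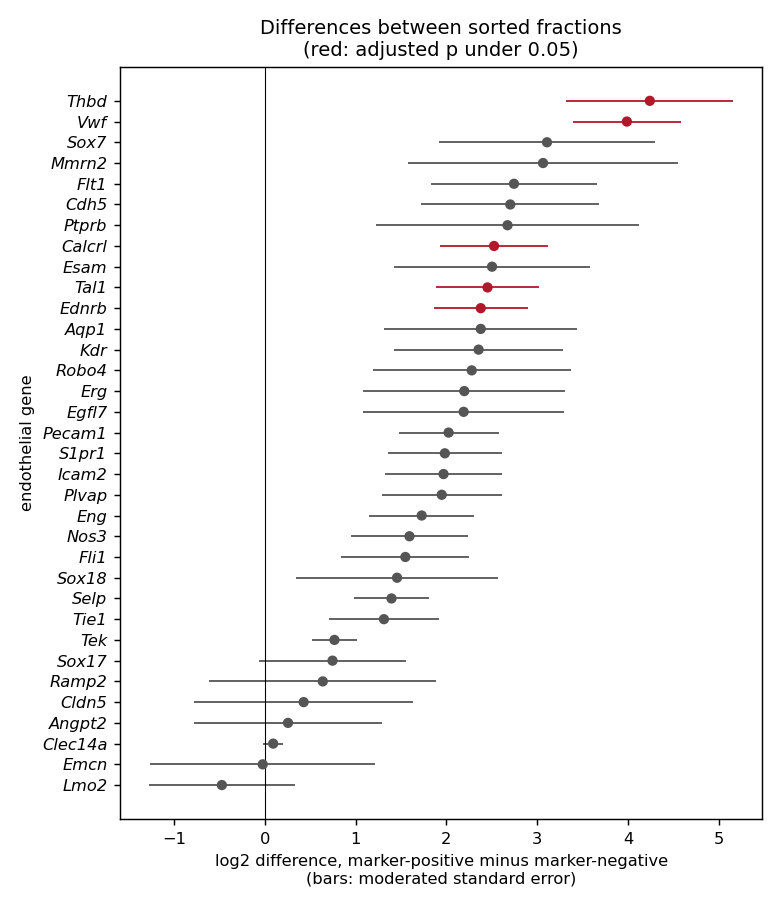
Each point is the log2 difference, marker-positive minus marker-negative, of 1 of the 34 tested endothelial genes, ordered by size, with a bar of 1 moderated standard error to either side. Red marks the genes with an adjusted p under 0.05, Thbd, Vwf, Calcrl, Tal1 and Ednrb, which lie well to the right of 0 with bars shorter than those of many neighbours.

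Averaged over the 34 genes, the log2 ratio was 2.83, 4.08 and 0.38 on marker-positive replicates 1, 2 and 3 (mean 2.43 ± 1.88, SD, n = 3). On the marker-negative arrays it ran from 0.04 to 1.38 with a median of 0.45 (mean 0.57 ± 0.53, SD, n = 6). Marker-positive replicates 1 and 2 stood above all 6 marker-negative arrays, and replicate 3 lay inside their range. All 34 genes were well above background on marker-positive replicates 1 and 2, 18 on replicate 3, and 21 to 33 on the marker-negative arrays.

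**Figure D2:**
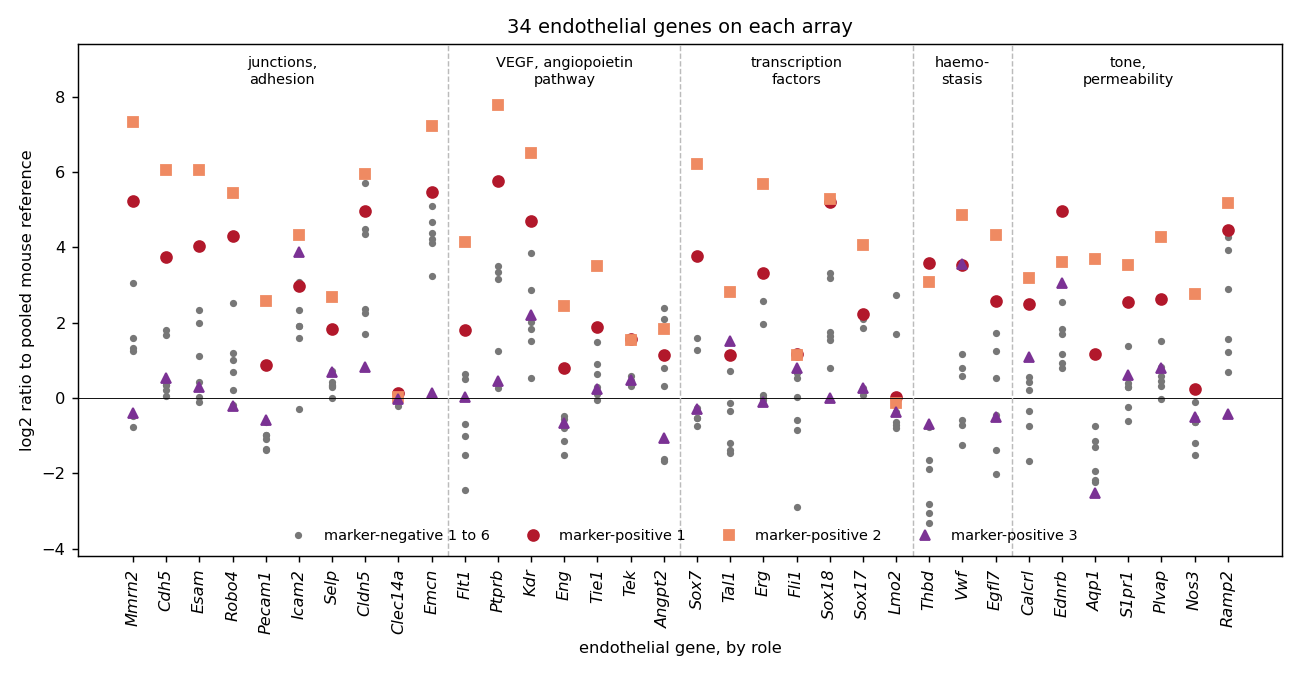
Log2 ratio of sample over reference (y axis) for each of the 34 tested endothelial genes (x axis, grouped by role), with 1 symbol per array: grey dots for the 6 marker-negative arrays and a red circle, orange square and purple triangle for marker-positive replicates 1, 2 and 3. Replicates 1 and 2 stand above every grey dot in 29 genes, while the triangle lies among the grey dots in 19.

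The secreted and haemostatic proteins held the largest differences, with 2 of 3 genes called higher and a group median of 3.99. Vwf encodes von Willebrand factor, the platelet-tethering protein stored in endothelial granules and also made in megakaryocytes. Its brightest probe (chromosome 6, 125709328 to 125709387, build mm7) had log2 ratios of 3.52, 4.87 and 3.56 on marker-positive replicates 1 to 3, and of -1.24 to 1.17 with a median of -0.00 on marker-negative arrays. All 3 marker-positive arrays stood above every marker-negative array, and the difference was 3.99 (SE 0.60, limma adjusted p = 0.00843). Thbd encodes thrombomodulin, the thrombin receptor that turns thrombin from clotting to protein C activation. Its probe (chromosome 2, 148145356 to 148145415) read 3.58, 3.08 and -0.69 on the marker-positive arrays and -3.31 to -0.76, median -2.35, on the marker-negative arrays. Replicate 3 was just above the highest marker-negative array, and the groups did not overlap. The Thbd difference was 4.24 (SE 0.92, adjusted p = 0.0396). Egfl7, a matrix protein secreted by endothelium that guides vessel tube formation and whose promoter is shown above, read 2.58, 4.32 and -0.51 against -2.01 to 1.73. Its replicate 3 lay within the marker-negative range, and the difference of 2.19 (SE 1.10, adjusted p = 0.314) did not pass.

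Of the 7 tested genes of vessel tone and permeability, Calcrl and Ednrb were called higher, and the group median was 1.98. Without marker-positive replicate 3, Aqp1, S1pr1 and Plvap were called as well, 5 in all. Calcrl is the receptor that pairs with Ramp2 to bind adrenomedullin. Its log2 ratio (probe on chromosome 2, 84174628 to 84174687) was 2.49, 3.19 and 1.09 on the marker-positive arrays, against -1.67 to 0.55 with a median of -0.07. Every marker-positive array lay above every marker-negative array, with a difference of 2.52 (SE 0.59, adjusted p = 0.0499). Its partner Ramp2 read 4.47, 5.16 and -0.43 against 0.69 to 4.27. Replicate 3 was lower than every marker-negative array for Ramp2, whose probe was not well above background there. The Ramp2 difference of 0.64 (SE 1.25, adjusted p = 0.838) did not pass. Ednrb encodes the endothelin receptor type B, which on endothelium triggers nitric oxide release. Its brightest probe (chromosome 14, 98247658 to 98247717) read 4.97, 3.61 and 3.05 against 0.80 to 2.56, median 1.44, a difference of 2.38 (SE 0.52, adjusted p = 0.0397). Ednrb was the one gene whose replicate 1 exceeded replicate 2 by more than 1. The remaining genes did not pass: Aqp1, a water channel, differed by 2.38 (SE 1.06), S1pr1, the sphingosine-1-phosphate receptor, by 1.98 (SE 0.63), Plvap, which forms the diaphragms of capillary pores, by 1.95 (SE 0.66), and Nos3, the endothelial nitric oxide synthase, by 1.59 (SE 0.64).

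Among the 7 transcription factors Tal1 alone was called higher, and the group median was 1.55. Without marker-positive replicate 3 it was not called, while Sox7, Sox18 and Erg were (adjusted p = 0.0123, 0.0262 and 0.0390). Tal1 is a helix-loop-helix factor of blood and endothelial precursors, and also of mast cells and megakaryocytes. Its log2 ratio (probe on chromosome 4, 114448057 to 114448117) was 1.15, 2.80 and 1.52 on marker-positive arrays and -1.46 to 0.71, median -0.76, on marker-negative arrays. The groups did not overlap, and the difference was 2.45 (SE 0.57, adjusted p = 0.0479). Sox7, a SOX factor of developing vessels, had the largest difference of the factors, 3.11 (SE 1.19, adjusted p = 0.186). It read 3.77, 6.23 and -0.30 against -0.75 to 1.59 with a median of -0.40, and its probe was well above background on 2 of 3 marker-positive and 3 of 6 marker-negative arrays. Replicate 3 lay in the marker-negative range. Its relatives Sox18 and Sox17 differed by 1.46 (SE 1.11) and 0.75 (SE 0.81), and the ETS factors Erg and Fli1 by 2.20 (SE 1.11) and 1.55 (SE 0.70). Erg was well above background on 2 marker-positive and 2 marker-negative arrays only. Fli1 was even across the marker-positive arrays at 1.15, 1.14 and 0.80, all above the highest marker-negative array (0.67), although it did not pass (adjusted p = 0.261). Lmo2, the bridging partner of Tal1, read 0.02, -0.12 and -0.36 against -0.80 to 2.72, a difference of -0.47 (SE 0.80, adjusted p = 0.807).

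No gene of the 10 tested junction and adhesion genes passed, although the group median was 2.0. Without marker-positive replicate 3, 6 were called higher: Cdh5, Esam, Mmrn2, Pecam1, Robo4 and Selp, at adjusted p-values from 0.00803 for Pecam1 to 0.0194 for Esam. Cdh5, which encodes VE-cadherin of the adherens junction, read 3.73, 6.04 and 0.53 against 0.04 to 1.79, median 0.34, a difference of 2.70 (SE 0.98, adjusted p = 0.167). Mmrn2, a matrix protein that binds Clec14a, read 5.24, 7.32 and -0.39 against -0.78 to 3.06, median 1.29, a difference of 3.06 (SE 1.48, adjusted p = 0.292). Esam, an adhesion molecule of tight junctions, read 4.03, 6.05 and 0.30 against -0.12 to 2.33, median 0.76, a difference of 2.50 (SE 1.08, adjusted p = 0.238). In all 3 genes replicates 1 and 2 stood above every marker-negative array and replicate 3 lay within their range, and in all 3 the probe was well above background on 2 of 3 and 4 of 6 arrays. Pecam1, which encodes CD31 of endothelium, leukocytes and platelets, read 0.86, 2.58 and -0.59 against -1.39 to -0.64. Its groups did not overlap, by a narrow margin on replicate 3, and the difference was 2.02 (SE 0.55, adjusted p = 0.0803). Pecam1 was well above background on 2 marker-positive and 1 marker-negative array.

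Emcn and Cldn5 departed from that pattern in the marker-negative cells. Emcn encodes endomucin, a sialomucin of capillaries and veins, and read 5.46, 7.21 and 0.14 against 3.25 to 5.11, median 4.31. Its probe was well above background on every array except marker-positive replicate 3, which was lower than every marker-negative array. The Emcn difference was -0.02 (SE 1.24, adjusted p = 0.995) and 2.04 without marker-positive replicate 3. Cldn5, the main claudin of endothelial tight junctions, read 4.95, 5.95 and 0.82 against 1.71 to 5.72, a difference of 0.43 (SE 1.21, adjusted p = 0.895). It was well above background on all 9 arrays, with replicate 3 again lowest. Transcripts of these endothelial markers were thus measured in the marker-negative group too. This was not particular to them, since 18 of the tested endothelial genes were well above background on all 6 marker-negative arrays. Of the others, Robo4, a guidance receptor that stabilises vessels, differed by 2.28 (SE 1.09), Icam2, an adhesion molecule of resting endothelium and of leukocytes and platelets, by 1.97 (SE 0.64), Selp, the selectin of endothelial and platelet granules, by 1.40 (SE 0.41) and Clec14a by 0.09 (SE 0.11), and none of these passed. Clec14a was well above background on 2 marker-positive and 1 marker-negative array, so its small difference and SE were read near background.

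The 7 tested genes of VEGF and angiopoietin signalling, with endoglin, had a median of 1.73, and none passed. Without marker-positive replicate 3, 6 were called higher: Tek, Eng, Ptprb, Tie1, Kdr and Flt1, at adjusted p-values from 0.00845 for Tek to 0.0408 for Flt1. Flt1, the decoy-like VEGF receptor, read 1.80, 4.14 and 0.02 against -2.44 to 0.62, median -0.85, a difference of 2.74 (SE 0.91, adjusted p = 0.137). Kdr, the main signalling receptor for VEGF, read 4.69, 6.50 and 2.19 against 0.54 to 3.85, a difference of 2.35 (SE 0.93, adjusted p = 0.200). Ptprb, the phosphatase that restrains Tek and VE-cadherin, read 5.77, 7.77 and 0.44 against 0.27 to 3.50, median 2.20, a difference of 2.67 (SE 1.45, adjusted p = 0.350), and was well above background on 2 of 3 and 4 of 6 arrays. In these 3 genes, too, replicate 3 lay within the marker-negative range. Eng, a co-receptor of the TGF-beta family, differed by 1.73 (SE 0.58), Tie1 by 1.31 (SE 0.61), the angiopoietin receptor Tek by 0.77 (SE 0.25), and the Tek antagonist Angpt2 by 0.26 (SE 1.04). Tie1 was well above background on 2 marker-positive and 2 marker-negative arrays only. A list of 8 vascular ligands, most of them for these receptors, gave no call in either direction among the 6 tested, and 2 higher calls, Vegfd and Vegfc, without marker-positive replicate 3. Vegfd differed by 2.18 (SE 0.61, adjusted p = 0.0881), and the difference of Vegfc was 2.53 (SE 0.83, adjusted p = 0.130). Apln, the ligand of the apelin receptor, differed by -0.97 (SE 0.36, adjusted p = 0.171).

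Against the 1.56% background of calls stands a wider separation on marker-positive replicates 1 and 2. In 29 of 34 genes both of them lay above every marker-negative array, which held for 13.6% of all genes. Their mean exceeded the marker-negative mean by at least 1 in 32 genes, by at least 2 in 25 and by at least 3 in 15, with a median of 2.79. Shares over all genes were not counted for these 3 thresholds. Replicate 2 was higher than replicate 1 in 28 of 34 genes and by more than 1 in 22 of them, against 4.46% of all genes. The median step from replicate 1 to replicate 2 was 1.62 over the endothelial genes and 0.03 over all genes. Normalization within arrays keeps the median over all genes near 0, so that median does not measure how far other genes differed. From replicate 1 to replicate 2 of this group, endothelial transcripts thus rose by more than 1 in a larger share than genes at large.

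Marker-positive replicate 3 gave a median of -0.09 against the marker-negative mean. It was the lowest of the 3 marker-positive arrays in 31 of 34 genes, against 37.4% of all genes. In 15 genes it lay more than 3 below the mean of replicates 1 and 2, with no share over all genes counted. It stood above every marker-negative array for 8 genes: Pecam1, Icam2, Fli1, Tal1, Vwf, Thbd, Calcrl and Ednrb, where the share over all genes was 26.2%. It stood below every marker-negative array for 7: Cldn5, Emcn, Robo4, Sox18, Erg, Ramp2 and Aqp1, where the share over all genes was 20.3%. Both counts are near those shares. The other 19 lay within the range, and the margins were narrow for Pecam1 and Thbd above and for Robo4 and Erg below. Pecam1 above, and Emcn, Robo4, Sox18, Erg and Ramp2 below, were not well above background on replicate 3. Their ratios there were read near background and do not measure how low the RNA was. The 3 arrays were above all marker-negative arrays together in 7 genes (all 8 of the first set except Icam2), against 5.13% of all genes, and below them in none, against 6.47%. For 6 genes, Icam2, Clec14a, Fli1, Tal1, Lmo2 and Vwf, replicate 3 came within 1 of the mean of replicates 1 and 2. Clec14a and Lmo2 were not well above background on replicate 3. For Vwf replicate 3 came this close on the brightest probe, while the other tested probe read 2.97, 5.13 and -0.29 against -0.85 to -0.15. On that other probe replicate 3 lay within the marker-negative range. The other probe was well above background on 2 marker-positive arrays and 1 marker-negative array only, so this overlap was read near background.

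**Figure D3:**
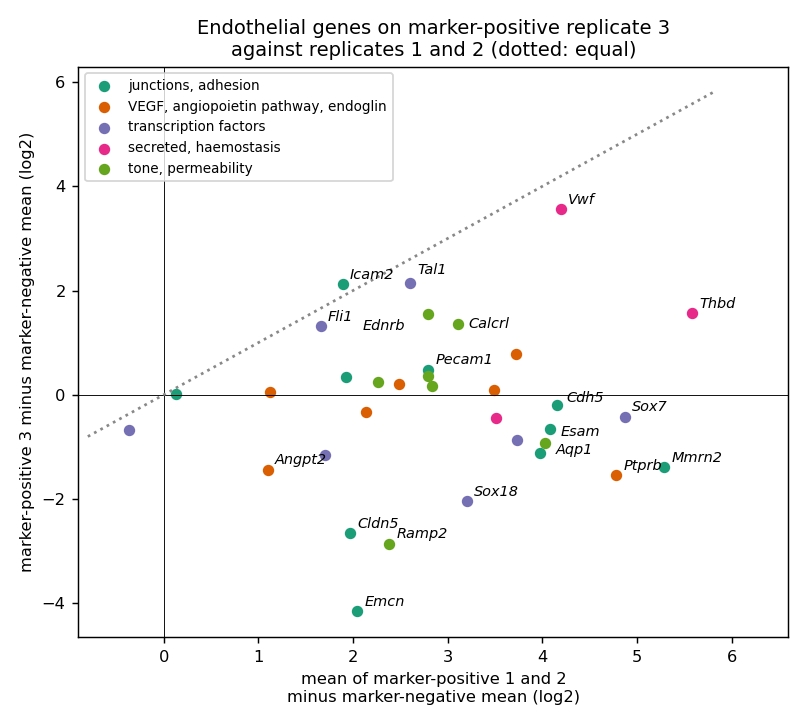
Each point is 1 of the 34 tested endothelial genes, coloured by role. The x axis averages the log2 ratios of marker-positive replicates 1 and 2, minus the marker-negative mean. The y axis is replicate 3 minus that mean (both log2), and the dotted line marks equality. Nearly all points lie to the right of 0. On the y axis they scatter around 0, from Emcn at -4.15, not well above background on replicate 3, to Vwf at 3.56.

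Several of the endothelial genes, among them Pecam1, Icam2, Fli1, Tal1, Lmo2, Vwf, Selp and Thbd, are known in blood lineages too, so markers of blood cells are given beside them. In a list of 9 macrophage genes, 4 were called higher, Mrc1, Cd163, Lyz2 and Itgam, and 0 lower. The mean log2 ratio of the macrophage list was 4.60, 3.48 and 4.04 on the marker-positive arrays and -0.24 to 2.40 on the marker-negative ones. Of 9 mast cell genes, 4 were called higher, Tpsb2, Fcer1a, Cpa3 and Kit, the last of which encodes the sort marker CD117. The mast cell mean was 4.01, 3.46 and 3.89 against 0.22 to 2.70. Single genes of both lists departed from these means: the mast cell gene Hdc read 5.18, 4.62 and 0.13, and the monocyte receptor Cd14 read 5.21, 3.67 and 1.84. Both lists also held 4 called genes without marker-positive replicate 3, and 2 mast cell genes were called with processed signals. Of 11 megakaryocyte and platelet genes 7 were tested and Pf4, a platelet chemokine, was called higher. Their mean was 0.81, 0.56 and 1.36 against -0.84 to 0.22 and their median difference 0.34. Pf4 read 4.53, 2.58 and 3.31 against -4.27 to -1.03, and in each of the other 6 genes the groups overlapped, while Gp6 was not well above background on any array, Gp9 and Gp1ba on 1 and Itga2b on 2. Of 8 blood stem cell genes and 6 pan-leukocyte genes none was called. The part of these cells in the endothelial values was not tested.

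**Figure D4:**
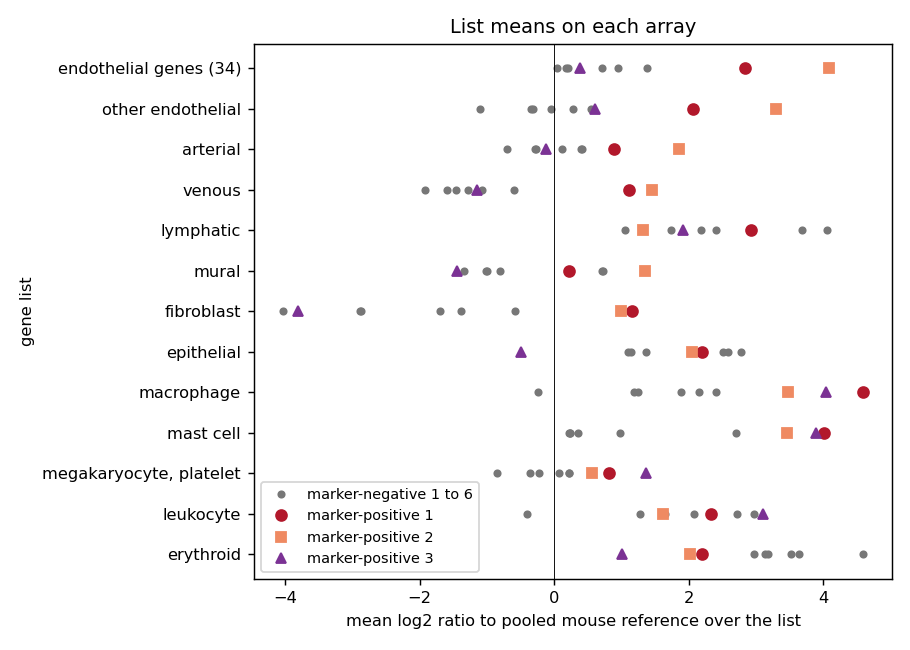
Mean log2 ratio to the reference (x axis) over each gene list (rows) on every array, with grey dots for the 6 marker-negative arrays and a red circle, orange square and purple triangle for marker-positive replicates 1, 2 and 3. The triangle lies among or near the grey dots for the endothelial lists. For the macrophage list, the mast cell list and the megakaryocyte and platelet list all 3 marker-positive arrays lie to the right of the dots. The other endothelial list shows this too, with the triangle just beyond the dots.

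Other cells of the stroma and epithelium also moved between arrays. The mean of 7 tested fibroblast genes was 1.16 and 1.0 on the first pair of marker-positive arrays and -3.80 on replicate 3, against -4.03 to -0.59, so it was low on the same array as the endothelial genes. Mural cell genes, which mark the pericytes and smooth muscle around vessels, gave 0.22, 1.34 and -1.45 against -1.34 to 0.72. Epithelial genes gave 2.20, 2.05 and -0.49 against 1.09 to 2.78. None of the fibroblast, mural or epithelial genes was called in either direction. Without marker-positive replicate 3, 3 fibroblast genes and 1 mural gene were called higher and 0 epithelial genes. Erythroid genes, of which 5 of 7 were tested, had 2 called lower, the haemoglobin gene Hba-a1 and the haem synthesis gene Alas2, with means of 2.20, 2.02 and 1.0 against 2.97 to 4.59. The share of these cells in the endothelial values was not tested.

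A further list of 20 endothelial genes was read beside the first. Of 18 tested, 5 were called higher and 0 lower, with a median of 2.22. In the first list 5 of 34 were called higher, and over all genes 1.56%. Cd93, a receptor of endothelium and myeloid cells, read 6.65, 6.79 and 6.35 against -0.77 to 2.88 and was higher by 5.30 (SE 0.77, adjusted p = 0.00733). Ly6c1, a Ly6 protein whose probe carries only the older name Ly6c, was higher by 3.63 (SE 0.67, adjusted p = 0.0218). Adgrf5, an adhesion receptor of endothelium, was higher by 3.75 (SE 0.71, adjusted p = 0.0229). Ece1, which makes endothelin, and Acvrl1, a receptor of the BMP family, were the other called genes. The groups did not overlap in any of these 5. The mean of the list was 2.07, 3.29 and 0.60 against -1.10 to 0.55, so replicate 3 was lowest of its group but just above the marker-negative arrays. Without marker-positive replicate 1 or 2, 1 gene of this list was called, without replicate 3, 9, and without marker-negative replicate 1, 2. Without marker-negative replicate 3, or with processed signals, it was 3, and with median centring 2. Shares of all genes called in these settings are given above.

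Of 8 tested arterial genes, the Notch ligand Jag1 (a difference of 2.44, SE 0.50, adjusted p = 0.0317) and the Notch receptor Notch4 (a difference of 2.65, SE 0.58, adjusted p = 0.0399) were called higher, and both stood above every marker-negative array on all 3 marker-positive arrays. Leaving out marker-positive replicate 2, or 1 of marker-negative replicates 1 and 6, left 0 called. Leaving out marker-positive replicate 1 or 3, or any of marker-negative replicates 2, 3 and 5, left 1. Gja5, an arterial connexin, differed by -1.37 (SE 0.42, adjusted p = 0.111). None of 5 venous genes passed, although their median was 2.05, and without marker-positive replicate 3 Ackr1 and Nrp2 were called higher. Ackr1, the chemokine-binding receptor of venules, read 4.89, 5.46 and 0.88 against 0.38 to 1.07, a difference of 2.98 (SE 0.84, adjusted p = 0.0896). None of 5 tested lymphatic genes passed and their median was -0.36. Lyve1, a hyaluronan receptor of lymphatic vessels that macrophages also carry, differed by 2.82 (SE 0.91, adjusted p = 0.128), whereas Mmrn1 and Reln, made by lymphatic endothelium, differed by -2.75 (adjusted p = 0.145, SE 0.94) and -2.61 (adjusted p = 0.219, SE 1.08).

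Second probes gave the same sign in 5 of the 6 endothelial genes that had more than 1 tested probe. The other Ednrb probe (chromosome 14, 98249421 to 98249480) gave 4.70 (SE 0.44, adjusted p = 0.00110). The other tested Vwf probe, near background on most marker-negative arrays, gave 3.06 (adjusted p = 0.0984). Those of Fli1, Selp and Sox7 gave 2.35, 1.92 and 1.99 (adjusted p = 0.113, 0.100 and 0.432). Of the other 2 Flt1 probes, 1 close to the brightest probe gave 3.34 (adjusted p = 0.0909). The probe at chromosome 5, 146548804 to 146548863, gave -0.09 (adjusted p = 0.866), although it was well above background on all 9 arrays. The call of Vwf and the values of Ednrb and Flt1 thus differed with the probe, and which transcripts each probe reads was not examined here.

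Within the 2 slides that held both groups, differences differed in size. On slide 1, with marker-positive replicate 1 and marker-negative replicate 1, 32 of 34 genes were positive with a median of 1.56. On slide 2, which held marker-positive replicate 2 beside 2 marker-negative arrays (replicates 2 and 4), 34 of 34 were positive with a median of 3.80. Shares of all genes positive within a slide were not counted. Vwf gave 2.94 and 4.58 within slides 1 and 2, Thbd 5.46 and 6.26, Calcrl 1.94 and 3.82, Ednrb 2.41 and 2.75, and Tal1 0.44 and 3.70. Marker-positive replicate 3 was alone on its slide, so slide and array cannot be told apart there. With slide as a fixed block, Thbd was the only gene called (background 0.641%). That setting compares the groups only within slides 1 and 2, so marker-positive replicate 3 has no part in its differences. Among marker-negative arrays, replicate 1 held the highest value in 15 of 34 genes and replicate 5 in 7.

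The log2 column of the authors' deposited table has the opposite sign to its signed fold of stem to non-stem cells in all 43379 rows, and the direction used here is that of the fold. There, 32 of 34 endothelial genes in the authors' deposited table had a fold above 0, and 5 had an adjusted p under 0.05 in every row of their probe. Shares over all rows of the authors' deposited table were not counted, so both numbers stand without a background. In the authors' deposited table the 5 genes were Thbd (fold 18.5, adjusted p = 0.00300), Vwf (15.7, 0.0266), Calcrl (5.74, 0.0415), Ednrb (5.16, 0.00516) and Selp (mean 2.61 over 10 rows, adjusted p from 0.0260 to 0.0492). Tal1 had a fold of 5.47 with an adjusted p of 0.0822 in the authors' deposited table, and so did not pass there.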

How the data were processed

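Scanner files come from Agilent Feature Extraction (10.7 in the submitters' processing notes, 10.7.3.1 per the file headers). Per the file headers they hold, for each spot and channel, mean and background intensity and an intensity already processed by the software, and a log10 ratio that was left aside. The authors' deposited table holds a log2 difference, a p-value, score columns and a signed fold, normalized in a way not given in the sources used here.

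With limma 3.58.1 in R 4.3.3, mean intensities were background-corrected by normexp with an offset of 50 and normalized by loess within arrays, control and outlier spots having weight 0. Spots of a probe were averaged. Tested were 28334 of 41174 probes, those with Cy5 well above background on 3 arrays or more. No dye was swapped. The groups were compared by limma's moderated test, two-sided, with trend and robust variance, Benjamini-Hochberg adjusted over all tested probes. A gene was its tested probe of highest mean intensity. Names came from the GRCm38.p6 RefSeq table (of the array's probes 22951 by systematic name, 131 by accession, 6582 by symbol and 3073 by synonym, while 8437 kept the file's name), and 3 probes of the endothelial genes carried an older name. Probe coordinates are those of the files (mm7). Its exons were not used here.

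The genes and lists were chosen with earlier results of these data known, so no list was tested. Values per array are given for called genes and for the 10 largest differences, other genes by role, and up to 3 genes of each further list by adjusted p; values per array for other endothelial genes, and the genes that stay high or low on 1 array, were added after values were seen. Replicate numbers are in accession order and do not pair arrays. Alternatives left out each array, weighted arrays, blocked on slide, averaged a gene's probes, and varied detection, variance model, normalization and background. The number of arrays limits the precision. Plots used matplotlib 3.10.9.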

Additional observations from a re-analysis of the deposited data

How the results depend on the processing

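The number of endothelial genes called higher was 5, where 1.56% of all genes were called. It was 2 with the processed signals (1.1% of all genes), 1 with median centring (0.7%) and 2 without a detection filter (0.788%). It was 25 with array weights (11.1%), where marker-positive replicate 3 had a weight of 0.243, and 1 with slide as a fixed block (0.641%). Leaving out single arrays gave 1 to 22, the highest without marker-positive replicate 3 (0.499% to 4.7% of all genes). The number stayed at 4 or 5 under the remaining settings (1.39% to 1.95% of all genes), and 0 were called lower under every setting. The cause was not tested. The median difference of 2.0 ranged from 1.11 without marker-positive replicate 2 to 2.79 without replicate 3, and it was 3.80 within slide 2. The difference of Vwf passed under every alternative that tested it except the fixed slide block (adjusted p = 0.115). That block rests on fewer arrays, those of slides 1 and 2. Signs turned for some differences that had not passed. With processed signals those of Angpt2 (-0.19), Sox18 (-0.57) and Ramp2 (-0.35) turned. The difference of Emcn was 0.50 with median centring, 0.53 with Cy5 alone, 1.48 with array weights, 2.07 with a fixed and 0.083 with a random slide block. The difference of Angpt2 was -0.082 with Cy5 alone, the difference of Lmo2 was 0.57 with the fixed block, and the difference of Pdgfra, a fibroblast gene, was -0.011 under detection in both channels on all arrays. Leaving out single arrays gave ranges across 0 for Cldn5 (-0.59 to 1.97), Emcn (-1.49 to 2.04), Ramp2 (-0.41 to 2.39), Angpt2 (-0.34 to 1.10), Sox17 (-0.19 to 1.70), the difference of Lmo2 (-0.70 to 0.0092) and the difference of Cd52, a leukocyte gene (-0.020 to 0.49). No paired analysis by replicate number was possible because the labels give none, and arrays that share a slide are compared through the slide block and the values within slides. Signal near background limits the 16 genes seen on 2 marker-positive arrays.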
